A study of Mus musculus with 72 samples.

Results

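The stanniocalcin genes Stc1 (ENSMUSG00000014813) and Stc2 (ENSMUSG00000020303), 2 of the 50600 genes of the count table, were followed through 72 RNA-seq libraries of 6 mouse melanoma cell lines. The pair was chosen by symbol, with the change of Stc1 after gastrin-releasing peptide (GRP) already known, so in the lines that carry the receptor GRP against mock is described without a test, and so is every other contrast that uses the same mock or GRP libraries. Poly(A) RNA was sequenced from cells starved for 18 h in 0.5% FCS and then given for 4 h mock (0.1% DMSO), GRP at 10 nM, the antagonist RC-3095 (RC) at 1 µM, or GRP and RC together, with 3 replicates of each. Each library held between 19512882 and 46862053 counted reads, and 3 counts, taken as the floor of detection, corresponded to at most 0.154 CPM (counts scaled to a common library size).

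Lines 1057 and 1064 came from females, with the alleles Tyr::NRASQ61K/°, Cdkn2a-/-, Tyr::CreA/° and Cdh1dF/dF, and are labelled GRPR-positive. Line 1181 came from a male with Tyr::NRASQ61K/°, Cdkn2a-/- and Cdh1dF/dF but no Cre (°/°), and line 1014 from a female with Tyr::NRASQ61K/°. Both 1181 and 1014 had been transfected with a plasmid driving Grpr and tGFP (CMV::Grpr/tGFP; 1181-Grpr and 1014-Grpr) or tGFP alone (CMV::tGFP; 1181-Ctrl and 1014-Ctrl, labelled GRPR-negative). All lines carry the Tyr-driven NRASQ61K transgene. A line is 1 established culture. The study's methods speak of independent biological replicates for its experiments in culture, and the labels do not say which libraries share a culture, so p-values measure the spread between libraries of 1 line and not between lines. Of 7 markers of melanocytic cells, Mitf, Sox10, Dct, Tyr, Pmel and Mlana were at 61.2 CPM or more in every library, while Tyrp1 was at 0.839 to 4.19 CPM in 1181-Ctrl and at 84.5 CPM or more in the other lines. Of 9 markers of other cell types, Ptprc of blood cells, Pecam1 of endothelium, and Epcam, Krt5 and Krt14 of epithelium stayed at or below 0.753 CPM, Acta2, Cdh5 and Pdgfra reached 3.18, 6.59 and 7.22 CPM, and Cd68 reached 32.7 CPM. The paired lines of 1181 differed beyond the plasmid. The median of Dct was 5646 CPM in 1181-Grpr and 244 CPM in 1181-Ctrl, and that of Tyrp1 1335 and 1.40 CPM. Xist, which is transcribed from the inactive X chromosome of females, was at 193 to 794 CPM in all libraries of 1181-Grpr, of which 11 of 12 also held the Y-linked Ddx3y, and at 0.0280 to 0.641 CPM in 1181-Ctrl. Cdh1 was at 14.5 to 26.9 CPM in 1181-Ctrl and 4.60 to 25.3 CPM in 1181-Grpr, against at most 0.119 CPM in 1057 and 1064, which carry the same Cdh1 label. In 2 libraries Ddx3y and Grpr both went against the label. The library labelled 1014-Ctrl mock replicate 2 had 1557 Ddx3y and 1165 Grpr counts, and the library labelled 1181-Grpr GRP+RC replicate 2 had 0 of both. Each had the Grpr and Ddx3y pattern of the line of the other, and whether they were exchanged was not tested. They stayed under their labels, and values without them are given beside most fold changes and tests that rest on them. The marker ranges, the counts of genes called and the correlations over groups include them.

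Stanniocalcins are secreted glycoprotein hormones, first known from fish, where they lower calcium uptake. In mammals they act locally: STC1 is linked to calcium and phosphate handling and to protection of stressed cells, and STC2 inhibits the protease PAPP-A, which frees insulin-like growth factors from their binding proteins. Both genes can be induced by stress of the endoplasmic reticulum or low oxygen. GRPR, the receptor for GRP, is coupled to Gq, which raises calcium and activates protein kinase C.

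Stc1 lies on the plus strand of chromosome 14 (GRCm38, chr14:69029238-69041804) and Stc2 on the minus strand of chromosome 11 (chr11:31357307-31370074). The annotated transcripts compared have 4 exons each, with coding lengths of 744 bases in Stc1 and 891 bases in Stc2. The second exon, wholly coding and 143 bases long in both, is shown to let the relatedness of the paralogs be seen, at chr14:69031503-69031645 for Stc1 and chr11:31367726-31367868 for Stc2. The sequences run 5′ to 3′ along the transcript, and capitals mark the 82 positions (57.3%) at which both genes have the same base, aligned without gaps.
Stc1 exon 2: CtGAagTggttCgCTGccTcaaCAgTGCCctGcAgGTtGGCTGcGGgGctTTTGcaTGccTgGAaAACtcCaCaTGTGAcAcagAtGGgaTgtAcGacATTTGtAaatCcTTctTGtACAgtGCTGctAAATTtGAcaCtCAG
Stc2 exon 2: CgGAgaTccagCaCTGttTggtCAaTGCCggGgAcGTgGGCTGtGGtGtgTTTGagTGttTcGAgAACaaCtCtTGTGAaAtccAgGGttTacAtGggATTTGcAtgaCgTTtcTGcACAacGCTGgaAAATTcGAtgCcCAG

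The third exon, 212 bases in both, matched at 105 positions (49.5%). The longest run shared by both transcripts was 12 bases on the same strand and 14 bases on opposite strands, against reads of 100 bases, so no read could lie wholly within a stretch they share. No exon of another gene overlapped Stc2. In Stc1, 229 exonic bases (5.5%) lay under the antisense gene Gm41192, and the libraries were made with a strand-specific kit, though whether counting used strand is not given in the sources used here.

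The resting levels of the paralogs followed different orders over the 6 lines. In mock cells, Stc1 had 6.59, 4.24 and 21.1 TPM (a level corrected for transcript length) in the replicates of 1064 and 3.72, 3.33 and 3.03 TPM in those of 1057. It was at 0.1 to 0.26 TPM in 1014-Grpr, 0.04 to 0.15 TPM in 1014-Ctrl, 0.03 to 0.17 TPM in 1181-Grpr and 0 to 0.05 TPM in 1181-Ctrl, where counts were 0 to 6 per library. Every library of 1064 was above every library of 1057, and the other 4 lines overlapped from neighbour to neighbour.

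Stc2 in mock cells was highest in 1057, with 6.12, 5.93 and 5.09 TPM. It followed at 0.5, 1.43 and 1.00 TPM in 1181-Grpr, 0.56, 1.49 and 0.69 TPM in 1014-Ctrl, and 0.99, 0.66 and 0.89 TPM in 1014-Grpr, which overlapped each other. Mock 1181-Ctrl had 0.06, 0.45 and 0.03 TPM. No read of Stc2 was counted in any of the 12 libraries of 1064, 0 of 336201236 counts, which allows a level of up to 0.00892 CPM (counting error only).

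Fold changes between lines came from an edgeR fit of the 18 mock libraries. Each uses mock libraries that entered the choice of the pair, so they carry no test, and nothing is read from the shares of genes called. A gene was called when edgeR's quasi-likelihood test gave an adjusted p (Benjamini-Hochberg) below 0.05 and the log2 fold change exceeded 1 in size. Stc1 was lower in 1057 than in 1064, with a log2 fold change of -1.67 ± 0.52 (SE), where 25.0% of 15358 genes were called. The size of this difference turned on 1064 replicate 3: without the third replicates it was -0.53. Stc2 was at least 235-fold higher in mock 1057 than in 1064, computed against 3 counts over the 3 mock libraries of 1064. Between 1181-Grpr and 1181-Ctrl, where 6.32% of genes were called, Stc2 was higher in 1181-Grpr by 2.33 ± 0.67 (log2, SE). The value was 2.29 without the 1014-Ctrl library that goes against its label. The lines also differ in Xist, Dct and Tyrp1, and the part of these differences in the result was not tested. The difference of Stc2 was 2.26 without replicate 1, 3.95 without replicate 2 and 1.89 without replicate 3 (log2). Stc2 in 1014-Grpr against 1014-Ctrl gave -0.09 ± 0.60 (log2, SE), with 0.0846% of genes called, and 0.44 without the 1014-Ctrl library that goes against its label. Stc1, at 0 to 6 counts per library in these lines, gave 1.54 ± 1.25 in 1181 and 0.69 ± 0.88 in 1014 (log2, SE), the latter 0.33 without that library.

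**Figure D1:**
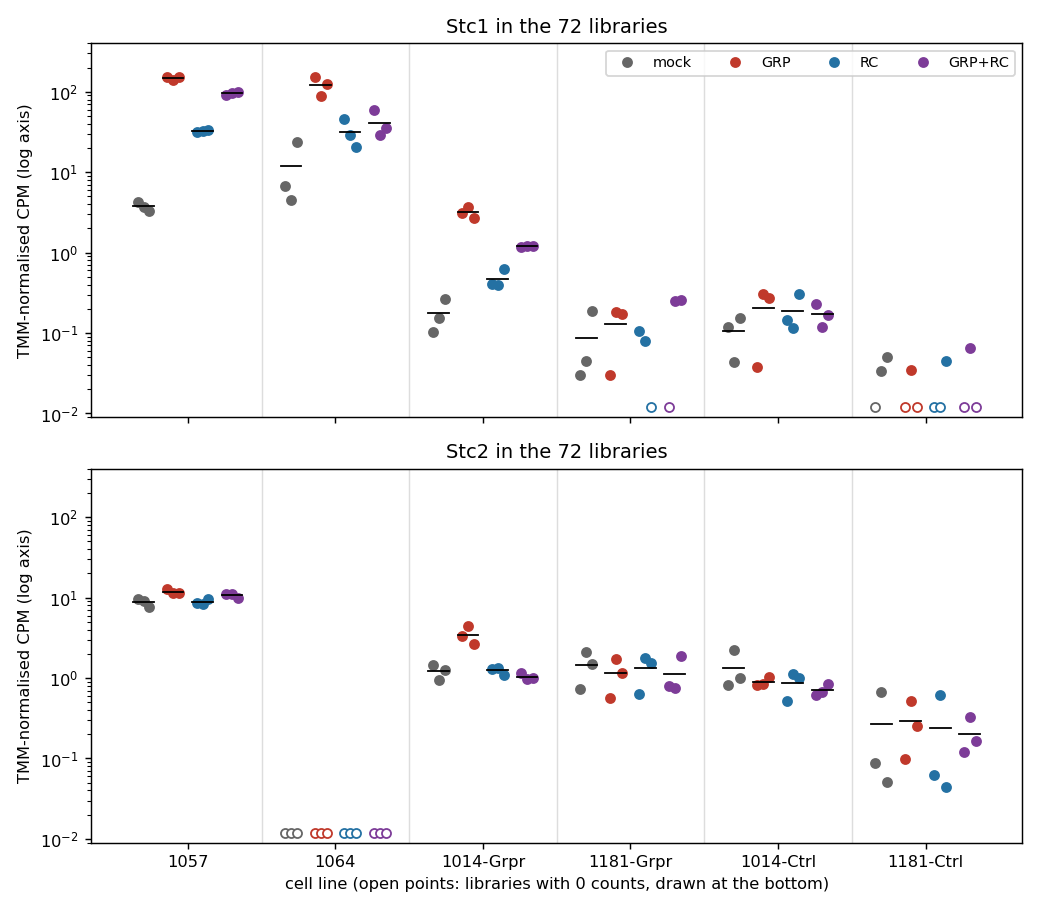
TMM-normalised CPM of Stc1 (top) and Stc2 (bottom) on a log axis in each of the 72 libraries, by cell line and treatment, with black lines at the means of groups that have no library at 0 and open points for libraries with 0 counts. Stc1 was spread by treatment in 1057, 1064 and 1014-Grpr, and Stc2 was at 0 in all 12 libraries of 1064.

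Under GRP the level of Stc1 was above mock in every library of 1057, 1064 and 1014-Grpr, the change that was known when the pair was chosen. In 1057 Stc1 had 4.23, 3.69 and 3.33 CPM in mock and 151, 140 and 154 CPM under GRP. The ratio of the means was 39.5, and the log2 fold change was 5.30 ± 0.07 (SE). In 1064 the mock libraries had 6.80, 4.58 and 24.0 CPM and the GRP libraries 154, 88.7 and 125 CPM, with a log2 fold change of 3.37 ± 0.60 (SE). Mock replicate 3 stood above the other mock libraries, and the groups did not overlap. In 1014-Grpr the mock libraries had 3, 5 and 6 counts (0.104, 0.154 and 0.269 CPM), near the floor, and the GRP libraries 76, 108 and 118 counts (3.10, 3.68 and 2.69 CPM). The log2 fold change there was 4.19 ± 0.30 (SE). The share of all genes called for GRP against mock, from which nothing is read about the pair, was 6.46% in 1057, 2.32% in 1064 and 4.01% in 1014-Grpr.

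Stc2 under GRP was described in the same way. In 1057 it had 9.61, 9.07 and 7.74 CPM in mock and 12.9, 11.4 and 11.5 CPM under GRP, a log2 fold change of 0.43 ± 0.09 (SE) without overlap of the groups. In 1014-Grpr it had 1.45, 0.954 and 1.25 CPM in mock and 3.35, 4.43 and 2.62 CPM under GRP, a log2 fold change of 1.50 ± 0.23 (SE), again without overlap. In 1181-Grpr, a line in which GRP called 0% of 14506 genes (edgeR, 45 at an unadjusted p under 0.05, 0 by DESeq2), Stc2 went from 0.726, 2.13 and 1.49 CPM in mock to 0.566, 1.75 and 1.15 CPM under GRP. The groups overlapped, with a log2 fold change of -0.32 ± 0.57 (SE). In mock cells Grpr was at 8.49 to 17.7 CPM in this line and 107.5 to 140.7 CPM in 1014-Grpr. It was at 273.4 to 275.5 CPM in 1057 and 786 to 1284 CPM in 1064. The part of this difference in the result was not tested. Stc1 in 1181-Grpr stayed at 0 to 7 counts in all 12 libraries and did not pass edgeR's filter on low counts. It had 7 counts in total in mock and 11 under GRP, so a rise as large as that in 1014-Grpr was not seen. A fall or a small rise was not detectable at this depth.

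RC alone, compared with mock, asks whether the antagonist changes the genes without added ligand. These values and those of both agents against mock rest on the mock libraries used in the choice of the pair, so in the lines with the receptor they carry no test, and nothing is read from the shares of genes called. In 1057 the RC libraries had 31.5, 32.5 and 33.3 CPM of Stc1, all above the 3.33 to 4.23 CPM of mock. The ratio of the means was 8.64 and the log2 fold change 3.11 ± 0.07 (SE), in a contrast in which 0.888% of 14195 genes were called. In 1064 the RC libraries had 45.3, 29.4 and 20.3 CPM, which overlapped mock because of mock replicate 3. The log2 fold change was 1.42 ± 0.56 (SE), and 2.72 without the third replicates. In 1014-Grpr the RC libraries had 8, 10 and 17 counts (0.403, 0.392 and 0.618 CPM), above the 3 to 6 counts of mock in every library, with a log2 fold change of 1.48 ± 0.37 (SE). RC called 0% of genes in 1064 (129 at an unadjusted p under 0.05, edgeR) and 0% in 1014-Grpr (161), and 0 by DESeq2 in either line.

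Stc2 stood nearer to mock under RC. In 1057 it had 8.71, 8.35 and 9.52 CPM under RC, within the range of mock, and a log2 fold change of 0.00 ± 0.09 (SE). In 1014-Grpr it had 1.31, 1.33 and 1.09 CPM, also within the range of mock, with a log2 fold change of 0.03 ± 0.25 (SE). In 1181-Grpr the RC libraries had 0.628, 1.79 and 1.55 CPM and the log2 fold change was -0.12 ± 0.57 (SE), where 0% of genes were called (edgeR, 33 at an unadjusted p under 0.05, 0 by DESeq2).

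**Figure D2:**
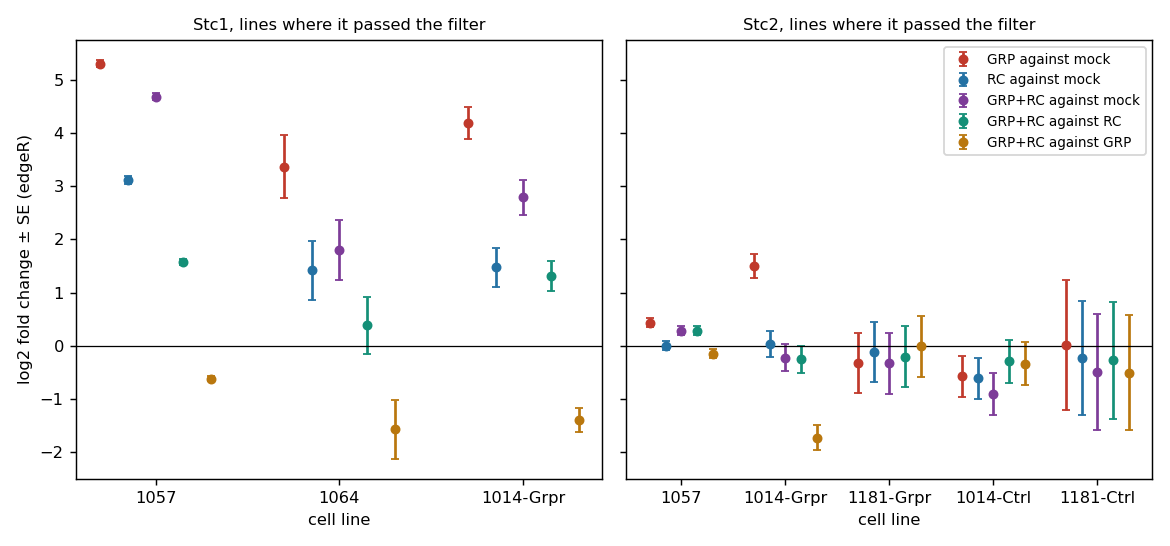
Log2 fold changes with standard errors from edgeR, for 5 contrasts, in the lines where Stc1 (left) or Stc2 (right) passed the filter on low counts. The points of Stc1 for RC against mock lay at 3.11, 1.42 and 1.48. Those of Stc2 lay between -0.12 and 0.03 in the lines with the receptor. In the control lines they lay at -0.23 in 1181-Ctrl and -0.62 in 1014-Ctrl, where mock includes the library that goes against its label.

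With RC present, the addition of GRP was compared with RC alone, the contrast in which no library had entered the choice of the pair and which is therefore tested. In 1057 Stc1 had 92.0, 97.4 and 100.4 CPM under both agents, all above RC alone, and the log2 fold change was 1.58 ± 0.05 (SE, adjusted p = 4.65e-13, edgeR), where 0.916% of genes were called. A single fit of all 72 libraries gave Stc1 1.56 there (adjusted p = 0.0284, edgeR). In 1014-Grpr it had 25, 29 and 29 counts (1.16, 1.21 and 1.20 CPM), above RC alone in every library. The log2 fold change of 1.31 ± 0.28 (SE, adjusted p = 0.169, edgeR) missed the threshold, in a contrast that called 0% of genes with edgeR (952 at an unadjusted p under 0.05) and 11 genes with DESeq2. With the replicate number as a block it was 1 of 32 genes called (1.31, adjusted p = 0.00972, edgeR), and DESeq2 called it too (1.32, adjusted p = 0.049). It was not called without the filter on low counts (1.3, adjusted p = 0.0629, edgeR) or on TPM (1.17, adjusted p = 0.25, limma). Nor was it called in the fit of all 72 libraries or with any 1 replicate left out. In 1064 the libraries had 58.9, 29.2 and 35.8 CPM and overlapped RC alone, with a log2 fold change of 0.38 ± 0.54 (SE, adjusted p = 1, edgeR; 0% of genes called, 24 at an unadjusted p under 0.05, 0 by DESeq2).

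Stc2 under both agents had 11.2, 11.1 and 9.81 CPM in 1057, above RC alone in every library by a small step. Its log2 fold change was 0.28 ± 0.09 (SE, adjusted p = 0.0279, edgeR), past the threshold on p but not that on size. In 1014-Grpr it had 1.16, 0.961 and 0.997 CPM and overlapped RC alone, with -0.26 ± 0.26 (log2, SE, adjusted p = 0.953, edgeR). In 1181-Grpr it had 0.797, 0.749 and 1.86 CPM, the second from the library that goes against its label, and the log2 fold change was -0.21 ± 0.57 (SE, adjusted p = 0.933, edgeR) with that library and 0.02 without it. In that line 0% of genes were called (edgeR, 264 at an unadjusted p under 0.05, 0 by DESeq2).

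The addition of RC to GRP is given as a description, since it shares the GRP libraries. The mean level of Stc1 under both agents was 65.2% of that under GRP in 1057, 33.7% in 1064 and 37.7% in 1014-Grpr, with log2 fold changes of -0.62 ± 0.04, -1.57 ± 0.55 and -1.40 ± 0.23 (SE). In all 3 lines every library with both agents was below every library with GRP alone. For Stc2 the mean was 89.8% of that under GRP in 1057, where the groups did not overlap, and 30% in 1014-Grpr, with log2 fold changes of -0.15 ± 0.08 and -1.73 ± 0.24 (SE).

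Both agents against mock left the paralogs apart. In 1057, with 3.47% of genes called, the log2 fold change of Stc1 was 4.68 ± 0.07 (SE). In 1014-Grpr, with 0.189% of genes called, it was 2.79 ± 0.33 (SE), with a ratio of the means of 6.8. In 1064 it stood at 1.80 ± 0.56 (SE), and at 2.95 without the third replicates, where 0% of genes were called (edgeR, 352 at an unadjusted p under 0.05, 0 by DESeq2). Stc2 gave 0.28 ± 0.09 in 1057 and -0.23 ± 0.26 in 1014-Grpr (log2, SE). In the latter line, then, the mean of Stc2 under both agents was 0.852 of mock while that of Stc1 was 6.8 times mock.

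The ratio of the paralogs within a library shows this directly, in the lines where both passed the filter. In 1057 the TPM of Stc1 over that of Stc2 was 0.608, 0.562 and 0.595 in mock, 16.2, 16.9 and 18.5 under GRP, 5.01, 5.39 and 4.84 under RC, and 11.4, 12.1 and 14.1 under both. Stc2 was thus the more abundant paralog in mock cells and Stc1 in the treated groups, and the 4 groups did not overlap. In 1014-Grpr the ratio was 0.101, 0.227 and 0.292 in mock, 1.28, 1.15 and 1.42 under GRP, 0.422, 0.407 and 0.789 under RC, and 1.38, 1.75 and 1.68 under both. Stc2 was the more abundant paralog in mock and under RC alone in this line, and Stc1 with GRP, with or without RC.

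**Figure D3:**
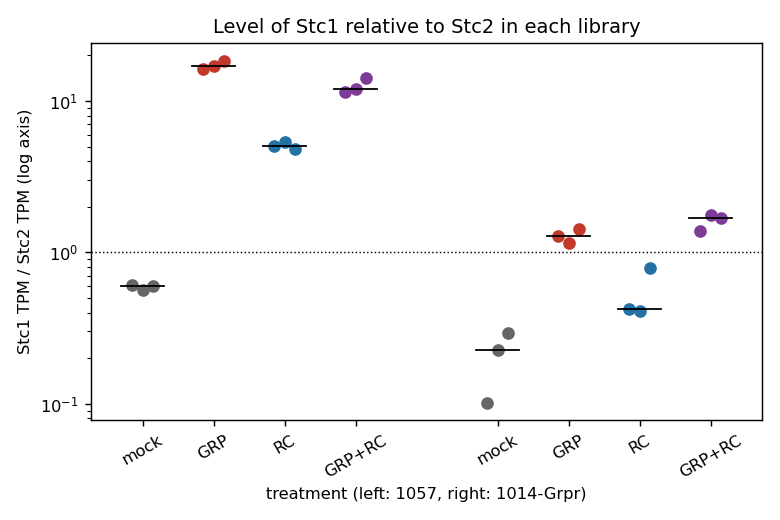
Stc1 TPM divided by Stc2 TPM on a log axis, in each library of 1057 (left) and 1014-Grpr (right), with lines at the medians and a dotted line at equal levels. The ratio was below 1 in mock in both lines, and under RC alone it was above 1 in 1057 (4.84 to 5.39) and below 1 in 1014-Grpr (0.407 to 0.789).

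Over the 4 lines with the receptor, treatment labels were permuted within lines and the mean difference of log2 values was tested two-sided, in a family of 12 tests (the control lines included) with Benjamini-Hochberg adjustment. For GRP+RC against RC Stc1 differed by 1.04 (permutation p = 0.0152, adjusted 0.0909; higher in 4 of 4 lines) and Stc2 by -0.05 (permutation p = 0.833, adjusted 1; higher in 1 of 4). The log2 ratio of Stc1 to Stc2 counts differed by 1.11 (permutation p = 0.0134, adjusted 0.0909). None of these passed the adjusted threshold, and they include 1064 without Stc2 and 1181-Grpr with Stc1 near 0. Without the 2 libraries that go against their labels, Stc1 differed by 0.88 and the ratio by 0.89 (adjusted permutation p = 0.379 in each). With a pseudocount of 2 counts in place of 0.5, the difference of Stc1 was 0.97 and passed (adjusted permutation p = 0.0119), and over all alternatives its adjusted p ran from 0.0106 to 0.889. For RC against mock, without a test, Stc1 differed by 1.43 (higher in 3 of 4 lines), Stc2 by -0.02 (higher in 2 of 4) and the ratio by 1.50.

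Whether the addition of GRP to RC differed between 1057 and 1064 was tested in 1 fit of all 72 libraries. For Stc1 it was larger in 1057 by 1.18 ± 0.48 (log2, SE, adjusted p = 1, edgeR), in a fit that called 0 of 16596 genes (276 at an unadjusted p under 0.05). The same fit gave Stc1 1.43 ± 0.97 for 1014-Grpr minus 1014-Ctrl and 0.67 ± 3.59 for 1181-Grpr minus 1181-Ctrl (log2, SE), neither called. Without the libraries that go against their labels these were 1.42 and 0.34. Stc1 was near the floor in the control lines.

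In the control lines no contrast called either gene, nor any gene of the table. GRP against mock called 0% of genes in 1014-Ctrl (562 at an unadjusted p under 0.05, edgeR; 0 by DESeq2) and 0% in 1181-Ctrl (37; 0 by DESeq2). Stc1 had 1 to 8 counts in the libraries of 1014-Ctrl and 0 to 2 in those of 1181-Ctrl, and did not pass the filter on low counts there. Treatment effects on Stc1 within these lines were tested by permutation over both. Mean differences for GRP against mock, RC against mock and GRP+RC against RC were 0.0, 0.11 and 0.04 (log2). They were 0.08, -0.38 and 0.12 for Stc2, and -0.14, 0.41 and -0.06 for the ratio. The smallest permutation p of these was 0.55 (Stc2, RC against mock). Stc2 in 1014-Ctrl had 0.828, 2.22 and 1.01 CPM in mock, the second from the library that goes against its label, and 0.823, 0.844 and 1.04 CPM under GRP. Its log2 fold change for GRP was -0.57 ± 0.39 (SE, adjusted p = 0.698, edgeR), and -0.02 without that library. Under RC it had 0.513, 1.12 and 0.997 CPM and under both agents 0.620, 0.677 and 0.840 CPM, with log2 fold changes against mock of -0.62 ± 0.39 and -0.91 ± 0.40 (SE, adjusted p = 0.659 and 0.654, edgeR), or -0.07 and -0.36 without that library.

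Stc2 also varied by replicate number. In 1181-Ctrl replicate 2 had 20, 15, 18 and 10 counts in mock, GRP, RC and GRP+RC, against 1 to 7 counts in the other libraries. In 1181-Grpr replicate 1 was the lowest in mock, GRP and RC, at 0.726, 0.566 and 0.628 CPM, and replicate 2 the highest, at 2.13, 1.75 and 1.79 CPM. The 2 libraries that go against their labels broke these rows: the one labelled 1014-Ctrl mock replicate 2 had 2.22 CPM, above the other 11 libraries of its line (0.513 to 1.12 CPM) and near replicate 2 of 1181-Grpr (1.75 to 2.13 CPM), and the one labelled 1181-Grpr GRP+RC replicate 2 had 0.749 CPM, within the range of those 11. In 1181-Ctrl, Stc2 log2 fold changes were 0.01 ± 1.22 for GRP, -0.23 ± 1.07 for RC and -0.50 ± 1.09 for both against mock (SE, adjusted p = 1 in each, edgeR).

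Genes around the stanniocalcins were taken from lists chosen with earlier results known. The counts for GRP stand against 6.46%, 2.32% and 4.01% of all genes called in 1057, 1064 and 1014-Grpr, and no list was tested as a whole. Of the PAPP-A and insulin-like growth factor axis, 11 of 15 genes were tested in 1057 and 1 was called for GRP, Igfbp5, a binding protein that PAPP-A cleaves (2.15 ± 0.06, log2, SE). Of 10 tested in 1064 and 9 in 1014-Grpr, 0 were called, and the medians were 0.04, 0.20 and 0.06 in 1057, 1064 and 1014-Grpr, against medians of -0.01 to -0.02 over all genes. Of the genes of calcium stores, entry and sensing, with 11, 11 and 12 of 13 tested in these lines, 0 were called. Changes below the size threshold went both ways. In 1057, 1064 and 1014-Grpr, Atp2a2 stood at 0.725 ± 0.029, 0.843 ± 0.175 and 0.88 ± 0.177 (log2, SE). Itpr1 stood at -0.907 ± 0.03, -0.429 ± 0.226 and -0.162 ± 0.138. Of 3 phosphate transporters tested in each, 1 was called, Slc20a1, a sodium-dependent importer, in 1057 (1.38 ± 0.04, log2, SE). It also stood higher, but was not called, in 1064 (0.876 ± 0.354) and in 1014-Grpr (0.965 ± 0.124). Igfbp5, Atp2a2, Itpr1 and Slc20a1, and the called members named from the lists that follow, were named after their values were seen.

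Of 12 genes of the ATF4 and unfolded protein response, 5 were called higher for GRP in 1057 (Asns, Atf5, Chac1, Hspa5 and Trib3), 2 in 1064 (Herpud1 and Hspa5) and 4 in 1014-Grpr (Atf3, Chac1, Sesn2 and Trib3), with medians of 0.94, 1.08 and 0.90. Chac1, which degrades glutathione, gave log2 fold changes of 2.79 ± 0.17, 2.15 ± 0.60 (not called) and 2.73 ± 0.49 (SE) in these lines, and Atf3, a stress-induced transcription factor, 0.17 ± 0.04 (not called), 1.42 ± 0.47 (not called) and 3.08 ± 0.22 (SE). For GRP+RC against RC, Chac1 was called in 1057 (1.68 ± 0.17, log2, SE), where 0.916% of all genes were. For RC against mock none of the 12 was called in any line by edgeR, and the median was 0.23 in 1057, in which Stc1 stood at 3.11. Of 12 hypoxia-response genes, 0 of 11 tested were called for GRP in 1057, 0 of 12 in 1064, and 2 of 10 in 1014-Grpr, Hk2 and the glucose transporter Slc2a1 (1.27 ± 0.19, log2, SE). Vegfa, the endothelial growth factor, stood at 0.75 ± 0.04, 1.00 ± 0.27 and 0.90 ± 0.11 (log2, SE), not called in 1057, 1064 or 1014-Grpr.

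The genes whose pattern was most like that of each paralog were ranked by Pearson's r of mean log2 CPM over the 24 groups, after the mean of each line was subtracted, among 16595 genes. For Stc1 they included Nus1 (r = 0.985), a subunit of dolichol synthesis, Ptpn1 (0.981), a tyrosine phosphatase, Slc35b3 (0.977), a nucleotide-sulfate transporter, and Nr4a3 (0.977), an immediate early nuclear receptor. In all 196 genes had an r above 0.9 with Stc1. For Stc2 they were Adm2 (0.912), a peptide hormone of the calcitonin family, Gm38057 (0.868), Ppfia1 (0.865), Ivns1abp (0.845) and Tcf12 (0.844), and 1 gene was above 0.9. The paralogs had an r of 0.4 with each other. The groups of a line share its mock libraries and its mean, so these values describe the 24 groups and carry no test.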

How the data were processed

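Per the labels, RNA was extracted with the miRNeasy kit and sequenced from TruSeq Stranded mRNA libraries, and the submitters' processing notes name FastQC 0.11.5 and STAR. The authors deposited raw read counts per gene, without normalization, and TPM values, in which the 12 columns of 1057 carry decimal commas, read here as points. The genome was GRCm38, and gene symbols came from GENCODE release 21 (99.6% of identifiers matched). An earlier release was used by the authors, so exon overlaps may differ slightly.

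The members and gene lists were chosen with earlier results of these data known. Counts were filtered with filterByExpr, normalized by TMM within each line and tested with edgeR 4.0.16 (R 4.3.3, limma 3.58.1), 12 libraries per line. Calls need a Benjamini-Hochberg adjusted p under 0.05 over all genes of the line and an absolute log2 fold change above 1. CPM values are TMM-normalised, and floors are 3 counts of the raw total and cover counting error only. In the receptor lines, contrasts that use the mock or GRP libraries are given without a test, as those libraries entered the choice of the pair. The comparisons of mock cells between lines are among them. Permutations were exact, within lines, on log2 CPM with a pseudocount of 0.5 counts. Named genes were the pair, genes of the PAPP-A, calcium and phosphate lists called for GRP in at least 2 of the 4 lines, the 2 genes with the largest mean change in each other list, and the 5 most alike, of which 1 is not reported here. No gene of the PAPP-A, calcium and phosphate lists met that rule. Igfbp5, Slc20a1, Atp2a2, Itpr1 and the called members of the other lists were named after their values were seen. Alternatives were DESeq2 1.42.0, no filter, limma on log2(TPM + 0.1), a block for the replicate number, the adjusted p alone, leaving out each replicate or the doubtful libraries, a joint fit of the 72 libraries and a pseudocount of 2 counts. The test of differences between lines was added after the data were seen. Figures were drawn with matplotlib 3.10.9.

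No replicate was a copy of another of its group (smallest chi-square per degree of freedom 2.556 over 72 pairs). Same-numbered replicates correlated in every pair above 0.1 in 1064 (mean 0.733), 1014-Grpr (0.468) and 1181-Ctrl (0.792), and not in 1057 (0.023), 1181-Grpr (0.404, lowest -0.015) or 1014-Ctrl (0.312, lowest 0.077). The pairing rests on replicate numbers in the labels and these values.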

Additional observations from a re-analysis of the deposited data

Results flagged for a closer look

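Stc2 under GRP was above the mock mean in all 3 libraries of 1014-Grpr and below it in all 3 of 1014-Ctrl, and the log2 fold changes differed by 2.07. The difference was not tested, because GRP against mock in 1014-Grpr was known when the pair was chosen. The mock mean of 1014-Ctrl includes the library that goes against its label (2.22 CPM), and without that library the log2 fold change in 1014-Ctrl was -0.02.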

How the results depend on the processing

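Of 256 recomputed values of 31 results with an adjusted p, 213 kept their direction and their side of the threshold. The 31 include the comparisons of mock cells between lines, which are described above without a test. Of 238 recomputed values of the 29 other results, 231 moved by less than 1 SD between replicates, and 8 changed sign within it. For Stc1, the replicate block in 1014-Grpr, a paired fit, gave a call for GRP+RC against RC (1.31), as did DESeq2 (1.32). The other alternatives gave no call there. The block changed no other call of either gene, but took the genes called for GRP in 1064 from 320 to 900 (DESeq2 491) and for GRP+RC against mock in 1014-Grpr from 26 to 85. Leaving out 1 replicate gave -2.04 to -0.53 for mock 1057 against 1064, 4.59 to 4.81 for GRP+RC against mock in 1057, and in 1064 2.89 to 4.42 for GRP, 0.79 to 2.72 for RC and 1.17 to 2.95 for both against mock. TPM gave 3.47 for GRP and 2.22 for both against mock in 1014-Grpr.

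Over the 4 lines, TPM or a pseudocount of 2 counts took Stc1 past the threshold for GRP+RC against RC (0.92 and 0.97), and the ratio likewise (0.97 and 1.02). So did leaving out replicate 1, with 1.48 for Stc1 and 1.61 for the ratio (adjusted permutation p = 0.0185 in each). Without 1 replicate these ran from 0.66 to 1.48 and 0.78 to 1.61.

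For Stc2, the adjusted p alone called GRP+RC against RC in 1057 (0.28). Without 1 replicate, mock 1181-Grpr against 1181-Ctrl ran from 1.89 to 3.95 and GRP in 1014-Grpr from 1.12 to 1.69. Mock 1014-Grpr against 1014-Ctrl changed sign with the block (0.07), without the doubtful library (0.44) and without 1 replicate (-0.49 to 0.60).

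Sign changes were otherwise of uncalled values. In 1181-Ctrl Stc2 gave -0.03 for GRP in the fit of all libraries, and on TPM 0.11 and 0.01 for GRP+RC against RC and mock. In 1181-Grpr it gave 0.02 (0.36 with the block) for GRP+RC against RC without the doubtful library. Without 1 replicate Stc2 ran from -0.86 to 0.02 (GRP, 1014-Ctrl), -0.33 to 0.00 (GRP, 1181-Ctrl) and -0.64 to 0.30 (GRP+RC against RC, 1181-Grpr). Over 4 lines Stc2 gave 0.01 for GRP+RC against RC without the doubtful libraries and -0.14 to 0.09 without 1 replicate.

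In the control lines Stc2 gave -0.06 (TPM), -0.02 (pseudocount of 2) and -0.40 to 0.55 (without 1 replicate) for GRP, and -0.04 (TPM) and -0.14 to 0.59 for GRP+RC against RC. Stc1 gave -0.11 without the doubtful libraries and -0.03 to 0.26 for RC, and -0.50 to 0.70 for GRP+RC against RC. The ratio gave 0.20 (TPM), 0.08 (pseudocount of 2) and -1.24 to 0.58 for GRP, 0.04 (TPM) and -1.07 to 0.84 for GRP+RC against RC, and -0.01 without the doubtful libraries for RC. The causes were not tested. Stc1 counts of 0 to 8 in 3 lines limit what could be seen there.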
